A study of Bos taurus with 48 samples.

Results

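miR-335 is a microRNA whose hairpin gene lies within the imprinted gene MEST. It was chosen by its name, with earlier results of these data known. The deposited small RNA table of the cow held 1 entry for bta-miR-335, out of 524 miRNA entries in all. In the RefSeq gene table of the cow (assembly ARS-UCD2.0) the gene MIR335, 92 bases long, was placed inside the span of MEST. Positions are not printed, since the paper names a UMD assembly of the cow for its own analysis of libraries of this series, and whether the deposited values rest on it is not stated.

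MEST, also called PEG1, is transcribed from the copy inherited from the father, while the copy from the mother is silenced by methylation, and miR-335 is cut from an intron of its transcript. In mouse white fat, Mest is known as a gene whose level goes with the growth of fat depots, and miR-335 has been described as raised in the fat and the liver of obese mice. In human cells, miR-335 is known to repress SOX4 and the matrix protein tenascin C in breast cancer lines, and RUNX2, a factor of bone formation, in mesenchymal stem cells.

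Small RNA libraries were sequenced from 48 samples of cow mammary fat pad (16), mammary parenchyma (15) and liver (17). The feeding groups were milk replacer ad libitum, a restricted amount of milk replacer, and control, a label that is not explained further. Fat pad was sampled in 6 ad libitum, 6 restricted and 4 control cases, parenchyma in 6, 6 and 3, and liver in 6, 6 and 5. Parenchyma is the part of the gland that holds the ducts, and the fat pad is the adipose tissue around it. The samples carry numbers that recur across tissues, and the labels state neither that a number is an animal nor what the breed, age or sex was, so p-values measure the spread between these samples only.

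Values are normalized read counts, that is, reads divided by 1 size factor per library. The reads listed for miRNAs were an estimated 2123962 to 9522666 per library in fat pad, 6193678 to 11291532 in parenchyma and 826776 to 5146724 in liver. miR-335 was listed above 0 in each of the 48 samples, with 123 to 948 reads of its own in fat pad, 198 to 1393 in parenchyma and 13 to 144 in liver. Its liver values are therefore the least precise: the lowest, 36.8 in restricted replicate 4, rests on 13 reads and has an exact Poisson 95% interval of 19.6 to 63.0, which covers counting error only.

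The labelled tissues were checked against marker miRNAs. Summed liver miRNAs (miR-122, miR-192 and miR-194) reached 883099 to 1630009 in liver samples, and at most 11810 in mammary ones. The sum of 10 epithelial miRNAs (the miR-200 family, miR-205, the miR-183 cluster and miR-375) lay between 61371 and 110903 in the 12 milk replacer parenchyma samples. In the 3 control parenchyma samples it lay only between 92.5 and 421, inside the range of the fat pad samples (17.4 to 436), with miR-375 and miR-429 listed at 0. In liver the same sum was 6539 to 22744. The samples labelled control parenchyma thus held little of the epithelial miRNAs that set milk replacer parenchyma apart from fat pad. For miR-335 the comparisons of parenchyma with the other tissues are also given without these samples. The counts and medians of miRNA lists in those comparisons include them.

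miR-335 was an intermediate miRNA in abundance, ranking 171st of 524 by its mean in fat pad and 220th in both parenchyma and liver. Its mean level was 369 ± 92.5 normalized read counts in fat pad (SD, n = 16), 206 ± 176 in parenchyma (n = 15) and 124 ± 39.5 in liver (n = 17). The spread in parenchyma came largely from the control samples: in the 12 milk replacer parenchyma samples the mean was 146 ± 45.1. In bulk samples fewer cells of a type and less of an RNA per cell cannot be told apart, for this and every level below.

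**Figure D1:**
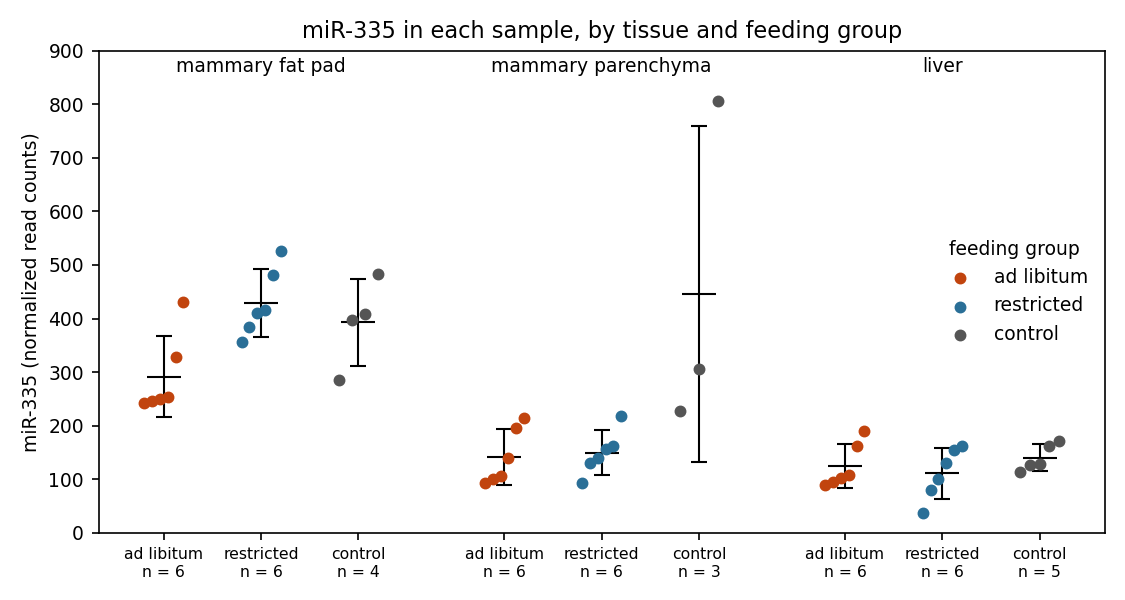
miR-335 in normalized read counts (vertical axis) in each of the 48 samples, by tissue and feeding group, with 1 point per sample, a horizontal mark for the group mean and bars for 1 SD. Of the ad libitum fat pad samples 5 of 6 lie below every restricted one, and control parenchyma stands above the other parenchyma samples, with 1 sample at 805.

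The first comparison asked where in the sampled tissues miR-335 is found. Fat pad carried the most: its values ran from 243 to 527, with a median of 390, and all 16 lay above the highest of the 17 liver samples (190). Against liver, miR-335 was 3.04-fold higher in fat pad, a log2 fold change of 1.60 (SE 0.17, adjusted p = 1.45e-10, limma; permutation test, two-sided, p = 2e-05, 0.00024 adjusted over 12 comparisons). In this pair of tissues 77.5% of the 325 miRNAs tested passed the same threshold of adjusted p below 0.05, so that the call alone does not set miR-335 apart.

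Against parenchyma, miR-335 was 2.09-fold higher in fat pad (log2 fold change 1.06, SE 0.22, adjusted p = 8.17e-05, limma; permutation test p = 6e-05, 0.00036 adjusted over 12), where 78.0% of 336 miRNAs passed. The median miRNA moved the other way, with a log2 fold change of -0.41, and 281 of the other miRNAs had a lower one than miR-335. Fat pad values overlapped only with control parenchyma: 13 of 15 parenchyma samples, among them all 12 milk replacer ones, fell below the lowest fat pad sample (243). Without control parenchyma the difference was 1.35 on the log2 scale (adjusted p = 4.76e-09, limma), and with each sample rescaled to the same sum it was 0.62 (adjusted p = 0.00406, limma), while the median of all miRNAs then moved to -0.77.

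Parenchyma ran from 92.3 to 805 with a median of 156, and liver from 36.8 to 190 with a median of 126, so that 6 of 15 parenchyma samples lay above the highest liver sample. The log2 fold change was 0.54 (SE 0.25, adjusted p = 0.0488, limma; permutation test p = 0.0267, 0.0535 adjusted over 12), in a comparison where 74.6% of 343 miRNAs passed. Without the 3 control parenchyma samples it was 0.25 with adjusted p = 0.266 (limma), so that the call rested on them. With each sample rescaled to the same sum it was 1.12 (adjusted p = 5.53e-05, limma), while the median of all miRNAs moved to 0.82, against 0.36 before.

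Placed in order of the group means, control parenchyma (446) was followed by restricted fat pad (429), control fat pad (393), ad libitum fat pad (292), restricted parenchyma (150), ad libitum parenchyma (141), control liver (140), ad libitum liver (124) and restricted liver (111). The ranges of neighbours in this order overlapped at every step but 1, the step between ad libitum fat pad and restricted parenchyma. Apart from control parenchyma, the means of the fat pad groups thus stood above those of all parenchyma and liver groups, and the order within the lower 5 groups was within their spread.

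**Figure D2:**
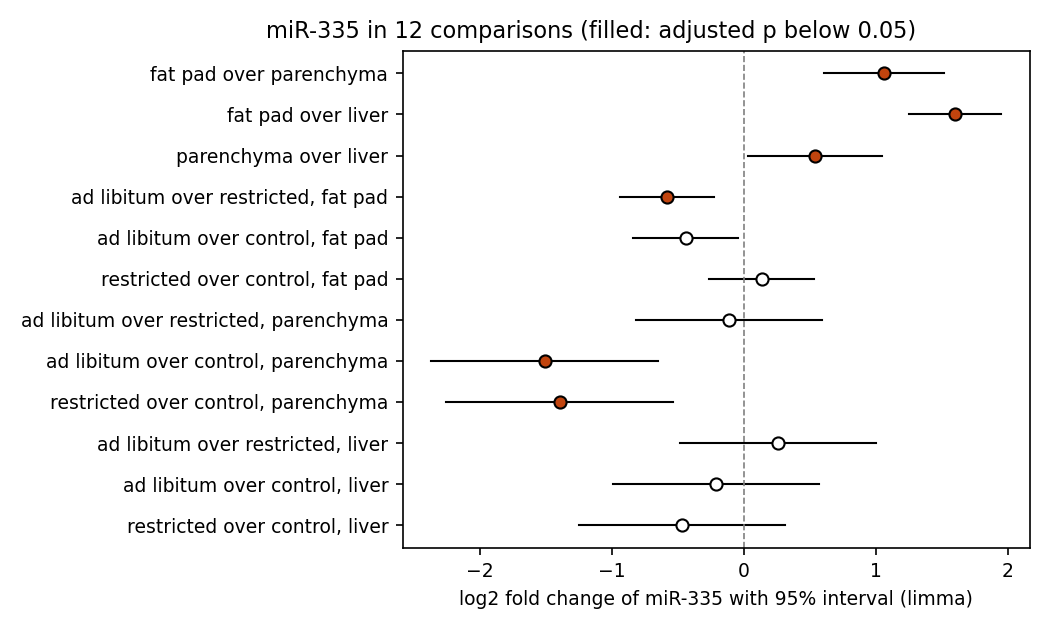
Log2 fold change of miR-335 (horizontal axis) with its 95% interval from limma in the 3 tissue comparisons and 9 feeding comparisons, filled where the adjusted p was below 0.05. The fat pad stands above both other tissues, and of the feeding comparisons 1 in the fat pad and 2 in the parenchyma passed.

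The feeding comparisons asked whether the amount of milk replacer goes with the miR-335 level in each tissue. In the fat pad of ad libitum samples miR-335 was 243, 246, 249, 253, 328 and 432 normalized read counts, and in that of restricted samples 357, 384, 411, 415, 480 and 527. Of the 6 ad libitum samples 5 lay below the lowest restricted sample, and the sixth, replicate 11, lay above 4 of the restricted ones. The means were 292 ± 75.8 with ad libitum feeding and 429 ± 63.1 with restricted feeding (SD, n = 6 each).

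miR-335 was thus 0.670-fold in ad libitum fat pad (95% interval 0.524 to 0.858), a log2 fold change of -0.58 (SE 0.17, adjusted p = 0.0279, limma). The exact permutation test, two-sided, gave p = 0.0130, which was 0.0519 after adjustment over the 12 comparisons of miR-335. In this comparison 16.6% of 301 miRNAs passed and 6.98% of the 301 were called lower, while the median miRNA had a log2 fold change of -0.02. Of the other 300 miRNAs, 33 had a lower log2 fold change than miR-335 and 267 a higher one. The call was close to the threshold: it passed in 10 of 16 fits with 1 sample left out (log2 fold change -0.70 to -0.52), and was lost without ad libitum replicate 3, 6, 9 or 15 or restricted replicate 10 or 16 (adjusted p up to 0.0657, limma). It was also lost when each sample was rescaled to the same sum (log2 fold change -0.43, adjusted p = 0.0803, limma). The median of all miRNAs then moved to 0.13 and miR-335 stood 0.56 below it, as it did before. In 1 fit over the samples of all tissues the log2 fold change was again -0.58, but with adjusted p = 0.372 (limma).

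Sequencing depth and the cellular make-up of the samples were read beside this difference. Ad libitum fat pad libraries had 2123962 to 8588233 reads listed for miRNAs, and restricted ones 4213224 to 9522666. The 2 highest values of their groups, ad libitum replicate 11 and restricted replicate 16, came from the library with the most such reads in each. With log2 reads as a covariate the difference was -0.51 on the log2 scale (adjusted p = 0.0556, limma). The sum of 14 adipocyte-linked miRNAs was 903538 to 1170648 in ad libitum and 974943 to 1427351 in restricted fat pad, and that of 7 immune cell miRNAs 3508 to 4604 and 3760 to 5094, with overlapping ranges in both. Striated muscle miRNAs (miR-1, miR-133a, miR-133b and miR-206) summed to 546 to 2476 in ad libitum and 586 to 3161 in restricted fat pad, with medians of 810 and 1456. Of the 2 that could be tested, miR-133a was lower with ad libitum feeding (log2 fold change -0.98, SE 0.31, adjusted p = 0.0418, limma). The 6 stromal and smooth muscle miRNAs summed to 497190 to 683428 in ad libitum and 498654 to 814376 in restricted fat pad, and 1 of them, miR-199b, was lower (-0.48, SE 0.13, adjusted p = 0.0209, limma). None of the epithelial, liver, endothelial, erythroid and immune marker miRNAs tested passed. The 10 epithelial miRNAs summed to 19.4 to 436 in ad libitum and 17.4 to 215 in restricted fat pad, with miR-141, miR-375, miR-429 and miR-96 at 0 in both groups. The part of these values in the result was not tested.

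Control fat pad lay between, at 285, 397, 408 and 483 normalized read counts (mean 393 ± 81.3, SD, n = 4). The ad libitum samples overlapped it, with 4 of 6 below the lowest control sample, and gave a log2 fold change of -0.44 (SE 0.19, adjusted p = 0.0935, limma; exact permutation test p = 0.0762), in a comparison where 22.3% of 301 miRNAs passed. It passed in 1 of 16 fits with 1 sample left out, that without ad libitum replicate 11 (-0.56, adjusted p = 0.0294, limma), and was -0.19 with samples rescaled to the same sum (adjusted p = 0.453, limma). Restricted fat pad differed from control by a log2 fold change of 0.14 (95% interval -0.26 to 0.54, adjusted p = 0.692, limma; exact permutation test p = 0.438), and 4.32% of miRNAs passed there. Both comparisons share the 4 control samples.

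**Figure D3:**
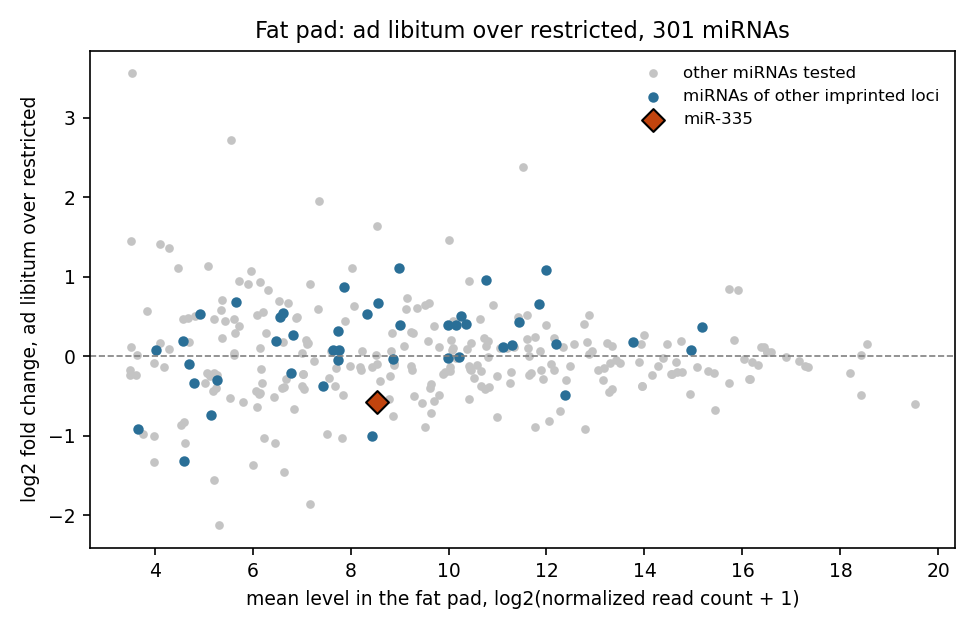
Log2 fold change of ad libitum over restricted fat pad (vertical axis) against the mean level in the fat pad on the log2(normalized read count + 1) scale (horizontal axis) for 301 miRNAs. miR-335 (diamond) lies at -0.58, below most miRNAs of other imprinted loci (dark points), whose median is 0.19.

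In parenchyma, miR-335 in ad libitum samples was 92.3, 101, 106, 139, 196 and 214 normalized read counts, and in restricted samples 92.8, 130, 139, 156, 162 and 218. The 2 groups overlapped over nearly their whole range. The log2 fold change of ad libitum over restricted was -0.11 (95% interval -0.81 to 0.59, adjusted p = 0.980, limma; exact permutation test p = 0.654). None of the 339 miRNAs passed in this comparison (0.0% called, limma; no other tool was run). In the fit that includes the control samples none had an unadjusted p below 0.05 either, and 11 had when the 2 compared groups were fitted alone.

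Control parenchyma stood above both milk replacer groups, at 227, 306 and 805 normalized read counts. All 6 ad libitum and all 6 restricted samples lay below its lowest sample. The log2 fold change was -1.51 for ad libitum over control (SE 0.41, adjusted p = 0.00601, limma) and -1.39 for restricted over control (SE 0.41, adjusted p = 0.0107, limma), with 42.5% and 40.7% of 339 miRNAs called. The exact permutation test, two-sided, gave p = 0.0238 for each, which is the smallest that 6 against 3 samples allow. After adjustment over 12 comparisons it was 0.0535. Without control replicate 2, the sample at 805, the values were -0.97 (adjusted p = 0.0487, limma) and -0.86 (adjusted p = 0.0821, limma), and the mean of the remaining controls was 266.

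These 3 control samples differed from the milk replacer parenchyma in more than miR-335. Beside the near absence of epithelial miRNAs, the sum of 14 adipocyte-linked miRNAs was higher in them. It was 592947 to 782603 in ad libitum and 580386 to 845570 in restricted parenchyma, against 1238735 to 1718408 in control. Taken singly, 2 of the 14 were lower in ad libitum and 5 in restricted than in control parenchyma, and none was higher. Over all miRNAs 42.5% and 40.7% were called in either direction. The list did not move as a whole: miR-204 was at 0.70 and 0.88 on the log2 scale, without passing. The pair of endothelial miRNAs, miR-126-3p and miR-126-5p, summed to 52569 to 91842 in ad libitum and 62850 to 106702 in restricted parenchyma, against 172748 to 426786 in control. The controls also differed among themselves: 7 immune cell miRNAs summed to 100531 in control replicate 18, the lowest of the 3 for miR-335, against 5376 in replicate 1 and 5059 in replicate 2, while milk replacer parenchyma ran from 6705 to 15777. Without replicate 18 the log2 fold changes of miR-335 were -1.88 for ad libitum (adjusted p = 0.00147, limma) and -1.77 for restricted feeding (adjusted p = 0.00257, limma). Feeding and this difference in make-up cannot be told apart in parenchyma, and their parts in the miR-335 level were not tested.

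**Figure D4:**
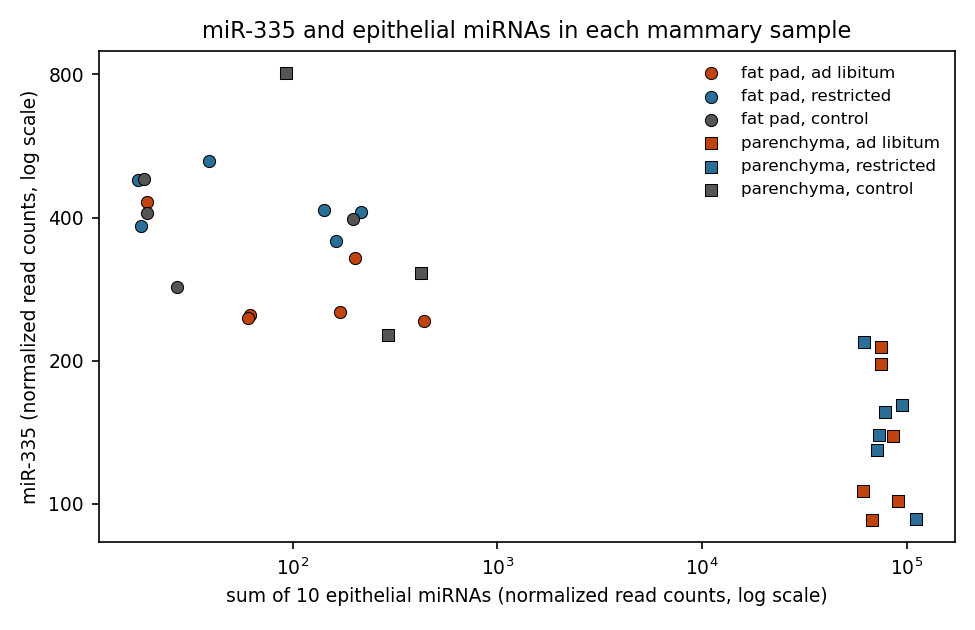
miR-335 (vertical axis) against the sum of 10 epithelial miRNAs (horizontal axis), both in normalized read counts on log scales, in the 31 mammary samples. Milk replacer parenchyma (squares, right) forms a group apart at 61371 or more on the horizontal axis. The 3 control parenchyma samples lie within the range of the fat pad samples (circles) on that axis, at 421 or less. On the vertical axis they are at 227, 306 and 805, where fat pad runs from 243 to 527.

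In liver no feeding comparison passed for miR-335. Ad libitum livers had 89.7, 95.4, 102, 107, 161 and 190 normalized read counts, restricted livers 36.8, 80.1, 99.6, 131, 155 and 162, and control livers 113, 126, 128, 163 and 170. The 3 groups overlapped. The log2 fold change was 0.26 for ad libitum over restricted (95% interval -0.49 to 1.00, adjusted p = 0.947, limma), -0.21 for ad libitum over control (-0.99 to 0.57, adjusted p = 0.839, limma) and -0.47 for restricted over control (-1.25 to 0.31, adjusted p = 0.546, limma), with exact permutation p of 0.552, 0.364 and 0.234. Few miRNAs passed in these comparisons, 0.324%, 3.56% and 6.80% of 309, and the last 2 counts, 11 and 21, were 0 and 5 without control replicate 21. Both intervals against control include a change of the size seen between ad libitum and restricted fat pad, -0.58, so that a change of that size is not excluded. The interval for ad libitum over restricted liver ended at -0.49, short of it, but without restricted replicate 4, the sample with 13 reads, it reached -0.67 and included it.

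Whether the feeding difference itself differed between tissues was tested in 1 fit over the 48 samples and 345 miRNAs. For ad libitum over restricted, the effect in fat pad minus that in liver was -0.83 on the log2 scale (95% interval -1.67 to -0.00208, adjusted p = 0.586, limma), and fat pad minus parenchyma -0.47 (-1.30 to 0.37, adjusted p = 1, limma). The lower level in ad libitum fat pad is therefore not shown to be particular to that tissue, and in neither of these tests did any miRNA pass (28 and 11 had an unadjusted p below 0.05). Of the effects against control, the difference between fat pad and liver did not pass (adjusted p = 0.80 for ad libitum and 0.491 for restricted, limma), while some that involve control parenchyma passed. Restricted over control was 1.53 higher in fat pad than in parenchyma (adjusted p = 0.0163, limma; 26.7% of miRNAs called), and ad libitum over control was lower by 1.29 in parenchyma than in liver (log2 difference -1.29, adjusted p = 0.0276, limma; 33.6% called). The second was lost when samples were rescaled to the same sum (-0.78, adjusted p = 0.183, limma). Ad libitum over control in fat pad against parenchyma (1.07, adjusted p = 0.120, limma) and restricted over control in parenchyma against liver (-0.93, adjusted p = 0.121, limma) did not pass.

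Other imprinted loci of the cow also hold miRNAs, above all the DLK1-DIO3 cluster, whose miRNAs are made from the copy inherited from the mother, the opposite of MEST. Of 55 measured miRNAs of such loci (DLK1-DIO3, with miR-483 of IGF2, miR-675 of H19 and those of GNAS among the names searched), 51 could be tested between fat pad and parenchyma. Of these 1 was higher and 29 lower in fat pad, where 31.2% and 46.7% of all miRNAs tested were called in these directions, with a median log2 fold change of -0.83 against -0.41 over all miRNAs, whereas miR-335 was at 1.06. Against liver the list went the same way as miR-335: 32 of 43 were higher in fat pad and none was lower, where 41.2% and 36.3% of all miRNAs were called higher and lower, with a median of 1.11 against 0.20 over all miRNAs and 1.60 for miR-335. The member that was higher, miR-432, had 1213 ± 480 normalized read counts in fat pad and 830 ± 377 in parenchyma (log2 fold change 0.74, SE 0.33, adjusted p = 0.0418, limma), and no longer passed without control parenchyma (0.34, adjusted p = 0.118, limma). miR-541 was listed at 0 in every fat pad sample and averaged 21.9 ± 15.4 in parenchyma. Of the 51, 7 had a mean under the filter of 10 in fat pad and were tested only for their level in parenchyma, as were 6 of the 43 for their level in fat pad, so the counts lean to these directions and support nothing further.

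In the fat pad, 5 of 44 such miRNAs were higher and 1 was lower in ad libitum than in restricted samples (9.63% and 6.98% of all miRNAs), with a median log2 fold change of 0.19. The highest, miR-433, was at 762 ± 366 in ad libitum and 356 ± 214 in restricted samples (log2 fold change 1.11, SE 0.37, adjusted p = 0.0499, limma). The lowest difference, -1.32, belonged to miR-376d and did not pass (adjusted p = 0.214, limma). The member that was lower, as miR-335 was, was miR-376e, described below. In ad libitum parenchyma 45 of 52 were higher than in control and none was lower, where 28.0% of all miRNAs were called higher, while miR-335 was lower there. miR-431 averaged 50.1 ± 12.9 in ad libitum parenchyma and was listed at 0 in all 3 control samples. It was 1 of 8 members with a mean under 10 in control, which could hardly be called lower there. The smallest difference of the list was 0.67 for miR-381 (adjusted p = 0.308, limma).

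Since MEST is known from fat tissue, miRNAs linked to fat cells were read beside miR-335. Of 14 adipocyte-linked miRNAs, 9 were higher and 3 lower in fat pad than in parenchyma (31.2% and 46.7% over all miRNAs), with a median log2 fold change of 0.60 against -0.41 over all. The highest was miR-378-2, a numbered copy that may share reads with other copies of miR-378, which in mouse is encoded in Ppargc1b. It had 61207 ± 23758 normalized read counts in fat pad and 15162 ± 27006 in parenchyma (log2 fold change 3.88, SE 0.88, adjusted p = 0.000212, limma). The lowest was miR-204 at -0.55 (SE 0.21, adjusted p = 0.0187, limma). Against liver, where miR-335 was higher in fat pad, 2 of the 14 were higher and 6 lower (41.2% and 36.3% over all miRNAs), with a median of -0.15, and their sum was 903538 to 1627421 in fat pad and 1369893 to 3352770 in liver. Between feeding groups of the fat pad 2 of the 14 were higher and 2 lower in ad libitum samples (9.63% and 6.98% over all miRNAs), with a median of 0.01. miR-365-5p was higher by 0.83 (SE 0.22, adjusted p = 0.0183, limma), and miR-26b was at 32283 ± 5369 in ad libitum and 51871 ± 10153 in restricted fat pad (log2 fold change -0.68, SE 0.14, adjusted p = 0.00279, limma).

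The list of miRNAs that hold back fat cell formation in mouse or human cells had 8 measured entries. Between fat pad and parenchyma 4 were higher and 3 lower (31.2% and 46.7% over all miRNAs), from miR-155 at 1.84 (adjusted p = 1.85e-05, limma) to miR-130b at -2.47 (adjusted p = 4.93e-05, limma). In the fat pad 1 of 7 was lower with ad libitum feeding and none was higher, a count near the 6.98% and 9.63% of all miRNAs. That member was miR-130a, which represses PPARG, the main factor of fat cell formation. The highest, miR-222, was at 0.21 and did not pass (adjusted p = 0.494, limma).

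The miRNAs whose pattern was most like that of miR-335 were taken from 324 miRNAs by Pearson's r on the log2 scale. Over the 48 samples these were miR-10a, encoded in the HOXB cluster (r = 0.848), miR-452 (0.845), miR-424-5p (0.822), miR-130a (0.812) and miR-2483-3p (0.805), where the median over the 324 was 0.04. The points share 3 tissues that differ from each other, and these r describe mainly the tissue pattern. miR-10a, for example, averaged 19928 normalized read counts in fat pad, 6428 in parenchyma and 2809 in liver, and within parenchyma 3813 in ad libitum, 3991 in restricted and 16532 in control samples, the same order of means as for miR-335. miR-2483-3p was listed at 0 in every liver sample and averaged 4.29 in ad libitum and 2.06 in restricted parenchyma. Many points behind its r thus lie at or near 0. Without the 3 control parenchyma samples the 5 values of r lay between 0.807 and 0.863.

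**Figure D5:**
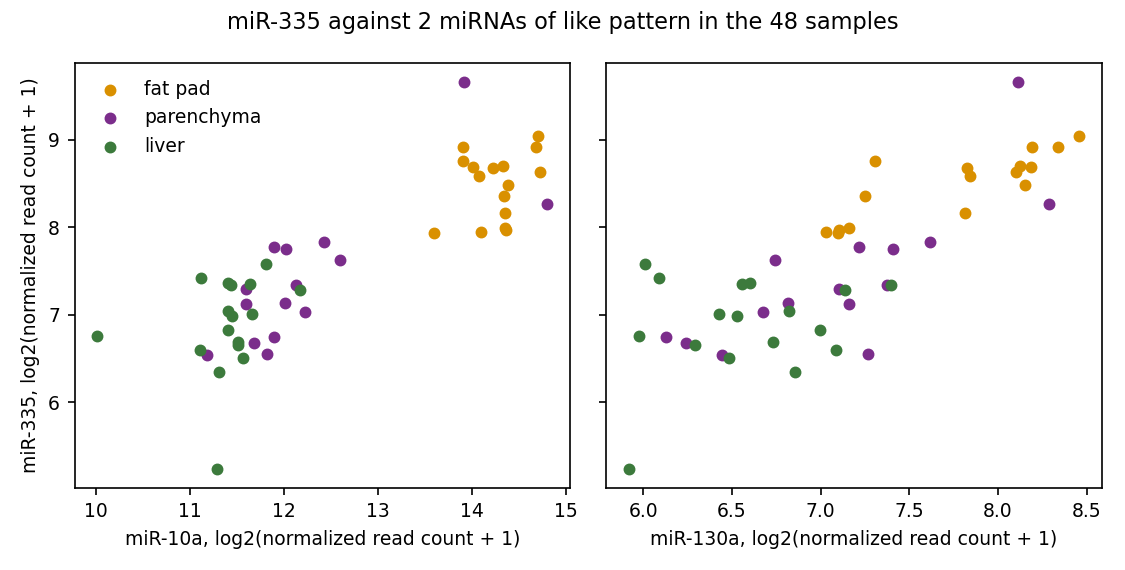
miR-335 (vertical axis) against miR-10a and miR-130a (horizontal axes), all as log2(normalized read count + 1), with 1 point per sample for the 48 samples, coloured by tissue. Fat pad samples lie at the top right in both panels, and among them miR-335 follows miR-130a (r = 0.718 within feeding groups) more than miR-10a (r = 0.136).

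After the mean of each of the 9 groups was taken off, so that tissue and feeding no longer count, the most alike were miR-424-5p (r = 0.761), miR-376e (0.71), miR-497 (0.663), miR-152 (0.575) and miR-106b (0.561), and without control parenchyma these were 0.706, 0.644, 0.578, 0.489 and 0.572. miR-424-5p was in both sets. miR-424 and miR-497 belong to the family of miR-15 and miR-16, known for repressing cell cycle genes. Within the fat pad alone the likeness of miR-424-5p was weaker (0.289) than in parenchyma (0.937) or liver (0.701). The same held for miR-376e (0.115 against 0.870 and 0.719) and miR-106b (0.256 against 0.543 and 0.693). For miR-497 it was 0.650 in fat pad, 0.794 in parenchyma and 0.574 in liver, and for miR-152 0.527, 0.724 and 0.429. The r within parenchyma include the 3 control samples, 1 of them at 805 for miR-335, and those within liver the sample with 13 reads. They were not computed without these samples, so the contrast with fat pad may rest on them. Values of 1 library share its depth and size factor.

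Of these 9 miRNAs, 2 were lower in ad libitum than in restricted fat pad, as miR-335 was, none was higher and 7 did not pass, where 6.98% of all miRNAs were called lower and 9.63% higher. miR-130a was at 130 to 157 normalized read counts in ad libitum fat pad, with a median of 139, and at 228 to 351 in restricted fat pad, with a median of 286. The groups did not overlap, and the log2 fold change was -1.02 (SE 0.13, adjusted p = 0.000115, limma). miR-376e, of the DLK1-DIO3 cluster, was at 122 to 276 in ad libitum and 313 to 600 in restricted fat pad, again without overlap (log2 fold change -1.01, SE 0.22, adjusted p = 0.00760, limma). miR-130a was named for its likeness to miR-335 over the 48 samples, where the feeding difference counts, so its direction is no independent evidence. miR-376e was named from the same samples after the group means were taken off, and within the fat pad groups its r was only 0.115. Whether its difference goes with that of miR-335 was not tested.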

How the data were processed

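Small RNA libraries were made by the authors from total RNA with the NEBNext kit (adaptor ligation, reverse transcription, PCR). Tools named in the submitters' processing notes, with neither version nor role, are bcl2fastq, FastQC, Trim Galore and DESeq2. The paper names miRBase, a UMD assembly and 3 programs for its own analysis of libraries of this series, with another trimmer; whether the deposited values come from any of these is not stated. The deposited values are other than raw counts: read counts divided by the authors by 1 size factor per library. Within a library every value was a whole number of equal steps (tolerance 0.01), and none above 0 was under 6 steps, so counts of 1 to 5 are listed at 0. Reads were estimated from the steps and summed over the listed miRNAs, so reads outside these miRNAs and counts listed at 0 are not included. No count test was used. The table's columns of fold changes and p-values are the authors' own comparison and were not used.

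Groups came from the tissue and treatment labels. limma 3.58.1 in R 4.3.3 was run on log2(value + 1) with its variance trend, for miRNAs whose mean over the fitted samples was 10 or more: 1 fit for each pair of tissues, 1 for each tissue's feeding groups, and 1 over all 48 samples for differences between tissues. P-values were adjusted by Benjamini-Hochberg over all miRNAs tested, with a threshold of 0.05. The fits were tested on simulated data. miR-335 alone was also tested by exact permutation (tissues: 100000 resamples) in Python 3.11.15 with scipy 1.17.1, two-sided. Named miRNAs were the 5 most alike by each measure, and the highest and lowest of each list. miR-335 and the lists were chosen with earlier results of these data known.

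Alternatives were a pseudocount of 10, a mean of at least 50 or no filter, rescaling each sample to a sum of 1000000, only the compared groups in the fit, 1 fit over 48 samples, leaving out samples, and a replicate block. Centring on the median, log2 reads as a covariate, and likeness without control parenchyma were added after seeing the data.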

Additional observations from a re-analysis of the deposited data

Results flagged for a closer look

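The effect of restricted feeding against control on miR-335 differed between fat pad and parenchyma, by a log2 difference of 1.53 (SE 0.48, adjusted p = 0.0163, limma): it was 0.14 in fat pad and -1.39 in parenchyma. The effect of ad libitum feeding against control differed between parenchyma and liver by a log2 difference of -1.29 (SE 0.47, adjusted p = 0.0276, limma): it was -1.51 in parenchyma and -0.21 in liver. Both tests use the 3 control parenchyma samples whose epithelial miRNAs sum to between 92.5 and 421. The part of this difference in make-up was not tested. No sample of miR-335 stood apart from the others of its group by Dixon's test in the 8 groups of 4 to 6 samples. The test was not run on the 3 control parenchyma samples, 1 of them at 805.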

How the results depend on the processing

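Of 110 values of miR-335 under other settings than leaving out 1 sample, 101 kept their direction and side of the threshold, among them all those of fat pad over parenchyma (0.62 to 1.35) and fat pad over liver (1.53 to 1.73). The other 9 are these, with adjusted p from limma. Parenchyma over liver was 0.54 without a filter (adjusted p = 0.0600), 0.59 with a replicate block (0.0539), 0.35 without the control samples of both tissues (0.169) and 0.25 without control parenchyma (0.266). Ad libitum over restricted in fat pad was -0.43 after rescaling (0.0803), -0.58 in 1 fit over 48 samples (0.372) and -0.51 with log2 reads as a covariate (0.0556), the last chosen after seeing the data. After rescaling, ad libitum over control in parenchyma against liver was -0.78 (0.183), and in fat pad against liver it turned to 0.16 (0.898).

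With 1 sample left out, ad libitum over restricted ran from -0.70 to -0.52 in fat pad, -0.25 to 0.00618 in parenchyma and -0.0246 to 0.40 in liver. Ad libitum over control ran from -0.59 to -0.33, -1.88 to -0.97 and -0.35 to -0.13 in the same tissues, and restricted over control from -0.00784 to 0.24, -1.77 to -0.86 and -0.61 to -0.19.

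The number as a replicate block changed no call of miR-335 but that of parenchyma over liver (0.59). Same-numbered samples deviated together with a correlation over 0.1 in 8 of 14, 9 of 16 and 5 of 15 pairs, and 5, 5 and 3 samples correlated best with their own number. The median correlation of the same number was 0.124 (fat pad and parenchyma), 0.127 (fat pad and liver) and 0.066 (parenchyma and liver). For other numbers it was -0.012, -0.013 and -0.015. Same-numbered samples were thus somewhat more alike, but the labels do not say that a number is an animal. The main fits treat the samples as unpaired, and their p-values do not allow for this likeness.

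The number of miRNAs called in fat pad was 50 for ad libitum over restricted, against 10 in 1 fit over 48 samples, 67 against 31 for ad libitum over control, and 13 against 7 with a pseudocount of 10 or centring and 4 with only the compared groups for restricted over control. In liver, restricted over control called 21, against 12 without a filter and 36 to 40 with the compared groups alone or all 48 samples; ad libitum over control called 11, against 6 and 24 under the last pair of settings. Ad libitum over restricted called 1 in liver, against 0 after rescaling, without a filter or with the compared groups alone, and 2 in 1 fit; in its tests between tissues 0 became 1 for fat pad against parenchyma (pseudocount of 10) and for fat pad against liver (the same, or rescaling). With 1 sample left out, the calls in fat pad ran from 32 (without restricted replicate 16) to 58 for ad libitum over restricted and from 5 (without restricted replicate 13 or control replicate 21) to 28 (without control replicate 2) for restricted over control. In liver they ran from 0 (without control replicate 21) to 17 (without control replicate 19) for ad libitum over control and from 5 (without control replicate 21) to 35 (without ad libitum replicate 15) for restricted over control. Rescaling moved the split of higher against lower calls: 105 to 157 became 67 to 191 for fat pad over parenchyma, 154 to 102 became 196 to 65 for parenchyma over liver, 29 to 21 became 40 to 15 for ad libitum over restricted in fat pad, 34 to 33 became 62 to 15 for ad libitum over control there, and 95 to 49 became 117 to 32 for ad libitum over control in parenchyma. The cause was not tested. Depth limits the liver most, where miR-335 had 13 to 144 reads.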

Other observations

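Between samples that carry the same number, miR-335 was higher in fat pad than in parenchyma for 13 of 14 numbers, higher in fat pad than in liver for 16 of 16, and higher in parenchyma than in liver for 10 of 15. Levels within groups did not go together by number: the correlation of the deviations from the group means was 0.09 between fat pad and parenchyma, -0.06 between fat pad and liver, and -0.13 between parenchyma and liver, given as descriptions, and the labels do not say that a number is an animal.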
